A study of Mus musculus with 6 samples.

Results

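Cck, Stc1, Stc2, Adm, Edn1 and Nppb encode secreted hormones: cholecystokinin, stanniocalcins 1 and 2, adrenomedullin, endothelin 1 and B-type natriuretic peptide. These 6 of the 22246 genes in the expression table were picked by symbol, with their levels in these same libraries already known, and all 6 had a row under their Ensembl identifier. Their differences between the groups are therefore a description and carry no test. The cells were mouse cells labelled HL-1, a line that was established from atrial heart muscle cells, of strain C57BL/6. The 3 libraries labelled Smyd4 shRNA came from cells given a short hairpin RNA against Smyd4, a SET and MYND domain gene, and the 3 control libraries from cells given a control short hairpin RNA, so both groups carried a hairpin. The labels name neither the vector nor the time after delivery, and are silent on whether replicate libraries were grown as separate cultures. Each p-value therefore sets a difference against the spread between these samples, and that spread may be technical.

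Peptide hormones are made as longer precursors that enter the secretory pathway, where convertases cut them and other enzymes add an amide, a sulfate or a sugar. The finished peptide acts on receptors of the same or other cells. Heart muscle is a known source of natriuretic peptides, which rise when the wall is stretched, and heart and vessel cells make the vasodilator adrenomedullin and the vasoconstrictor endothelin 1. Cholecystokinin is known best from gut endocrine cells and from neurons, and the stanniocalcins from many tissues.

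The libraries held 20755856 to 26387606 recovered reads in the group labelled Smyd4 shRNA and 23414484 to 25267607 in the control group. Smyd4 stood at 12.6, 12.3 and 11.9 FPKM (fragments per kilobase of transcript model, adjusted for library size) in the labelled libraries and at 12.5, 12.8 and 13.5 FPKM in the control libraries. The ranges overlapped, and the log2 difference was -0.07 with a 95% confidence interval from -0.16 to 0.02 (limma, adjusted p = 0.173; exact two-sided permutation test p = 0.2, where 0.1 is the smallest possible). The target's mRNA showed no detectable fall, which goes against the label, and every direction below is relative to the label alone. The cell type was also checked. Over all 11325 genes tested, limma called 25.1% higher and 23.3% lower in the labelled libraries, so a call among the markers is common. Of 15 atrial cardiomyocyte markers 5 reached the filter used for testing, with 3 higher and 1 lower; Myh6, Actc1, Tnni3 and Myl7 stayed below 0.1 FPKM on average in both groups, and Nppa was not analysed here because it had no row. Gja1, at 145 FPKM in labelled and 146 FPKM in control libraries, carried most of that list's sum. The fibroblast collagen genes Col1a1 (69.3 FPKM in labelled, 37.6 FPKM in control libraries) and Col1a2 (84.9 FPKM in labelled, 60.5 FPKM in control) were present. So were the skeletal muscle genes Chrna1 (9.59 FPKM in labelled, 49.9 FPKM in control) and Myod1 (5.31 FPKM in labelled, 18.8 FPKM in control). The 4 skeletal muscle markers with a row (Ckm had none) summed to 15.2 to 17.0 FPKM in the labelled libraries and 79.1 to 81.9 FPKM in the control libraries, and all 3 tested markers fell. The 6 fibroblast markers summed to 154 to 164 FPKM in labelled and 128 to 130 FPKM in control libraries, with 2 of 4 tested higher and 2 lower. The collagens made up most of that sum and were the 2 that rose. Dcn fell to 1.72 FPKM in labelled from 26.3 FPKM in control libraries, a log2 difference of -3.60. Pdgfra fell to 2.94 FPKM in labelled from 4.35 FPKM in control libraries. Lum and Postn stayed below 0.1 FPKM on average in both groups. The 5 endothelial markers stayed at a sum of 0.0498 to 0.612 FPKM in labelled and 0.133 to 0.179 FPKM in control libraries, and the 2 of 6 neuroendocrine markers with a row at 0.00927 to 0.0613 FPKM in labelled and 0.0499 to 0.0654 FPKM in control libraries, with no row for the defining markers Chga and Chgb. The 5 macrophage markers summed to 19.5 to 21.3 FPKM in labelled and 28.9 to 30.4 FPKM in control libraries, nearly all of it Cd14, with Ptprc and Adgre1 at or near 0. Labelled replicate 3 stood apart at low levels. Reads of Myh6, Actc1, Ptprc and Adgre1 in the labelled group came from it alone, at no more than 0.0597 FPKM each, and the endothelial sum was 0.612 FPKM there. Cdh5 stood at 0.315 FPKM in it, against 0.115 and 0.0199 FPKM in labelled replicates 1 and 2, and Pecam1 at 0.116 FPKM, against 0.00614 and 0.0191 FPKM. Epas1, a hypoxia factor gene named after its values were seen, stood at 0.519 FPKM in it, against 0 and 0.0298 FPKM in the other labelled libraries and 0.0371 to 0.0397 FPKM in the control libraries. Without that library the log2 differences were -5.49 for Cck, -3.45 for Stc1, 0.99 for Stc2 and -1.49 for Nppb. In bulk RNA a smaller number of cells of a type and less RNA per cell cannot be told apart, and the part these shifts play in the hormone values was not tested.

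Cck was the most abundant of the 6 transcripts in the control cells and the most reduced in the cells labelled Smyd4 shRNA. Cck (ENSMUSG00000032532) is protein coding and lies on the minus strand of chromosome 9 from 121489825 to 121495689 of GRCm38. It stood at 2.40, 2.66 and 2.40 FPKM in the labelled libraries, against 128, 137 and 141 FPKM in the control libraries. Every labelled library was far below every control library, and the 3 values within each group lay close together. These levels rest on 43, 46 and 34 reads in the labelled libraries and 2101, 2219 and 2444 reads in the control libraries. The mean was 2.49 ± 0.149 FPKM (SD, n = 3) in the labelled group and 135 ± 6.39 FPKM (SD, n = 3) in the control group, a ratio of 54.4. The log2 difference on the log2(FPKM + 0.5) scale was -5.51 with a standard error of 0.05, the second largest fall among the 11325 genes tested. By mean FPKM Cck ranked 368th of all genes in the control libraries and 9585th in the labelled ones. The 123 reads of the labelled group in all set the ratio of reads, labelled over control and corrected for size factors, at 0.0184 with an exact 95% interval from 0.0153 to 0.0220, which covers counting error only.

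The sequence before the Cck start is shown because Cck is the transcript that differed most and because its short promoter is a textbook case of control by cyclic AMP and E-box elements. The window holds the 250 bases before the RefSeq start on the minus strand, chr9:121495695-121495944 of GRCm38.p6, with matches in capitals.
Cck: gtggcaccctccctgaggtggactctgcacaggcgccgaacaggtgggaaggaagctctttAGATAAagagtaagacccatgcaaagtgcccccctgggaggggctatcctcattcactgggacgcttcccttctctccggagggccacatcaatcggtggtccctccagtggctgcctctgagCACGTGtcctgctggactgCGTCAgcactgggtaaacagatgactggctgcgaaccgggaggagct
Both strands were searched for the cyclic AMP response element TGACGTCA and its core TGACG, and for the AP-1 element TGANTCA. The hypoxia element was taken as ACGTG or, with the other first letter, as GCGTG. The amino acid response element was TGATGNAA, the E-box element was CACGTG, and the letters of a GATA factor match were AGATAA or, with a first T, TGATAA. The muscle MCAT element was CATTCC and the TATA box was TATAAA. Neither TGACGTCA nor TGANTCA nor TGATGNAA, which 1.55%, 6.75% and 3.45% of all windows hold, was found before any of the hormone genes matched. In the Cck window the core TGACG begins 47 bases before the start and is read as CGTCA on the strand shown, while the E-box CACGTG begins 66 bases before it and holds the hypoxia letters ACGTG on both strands. A GATA match lies at 189 bases. Of 32851 RefSeq windows of this length, 17.8% hold TGACG, 6.02% the E-box, 38.6% a hypoxia element and 16.6% a GATA match. A match describes letters and is not evidence of binding.

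The stanniocalcins moved apart. Stc1 and Stc2 are paralogs, glycoproteins named after a calcium-lowering hormone of fish, and in mammals both are known to inhibit the protease pregnancy-associated plasma protein A, which frees insulin-like growth factors. Stc1 (ENSMUSG00000014813, chromosome 14, 69029289 to 69041401, plus strand) stood at 0.542, 0.877 and 0.697 FPKM in the labelled libraries and at 12.1, 13.2 and 12.5 FPKM in the control libraries. The groups did not overlap, and the transcript was reduced but still detected in every labelled library. Between 53 and 83 reads per labelled library lay behind these values, against 1086 to 1190 per control library. The means were 0.705 ± 0.168 FPKM in the labelled and 12.6 ± 0.525 FPKM in the control libraries (SD, n = 3 each), a ratio of 17.9 between control and labelled, and the log2 difference was -3.45 with a standard error of 0.10. The spread was wider in the labelled libraries, with a coefficient of variation of 23.8% against 4.16% in the controls.

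Stc2 (ENSMUSG00000020303, chromosome 11, 31357307 to 31370074, minus strand) went the other way. It is known as a gene induced by endoplasmic reticulum stress and amino acid shortage through the transcription factor Atf4. It stood at 17.7, 17.8 and 17.6 FPKM in the labelled libraries and at 8.44, 8.61 and 8.96 FPKM in the control libraries. All labelled libraries were higher, and with 1881 to 2390 reads per labelled and 1045 to 1176 per control library it rests on more reads in the labelled libraries than any other of the 6. The labelled libraries varied by only 0.612% around 17.7 ± 0.108 FPKM, against 3.07% around 8.67 ± 0.266 FPKM in the control libraries (SD, n = 3 each). The level was 2.04-fold higher in the labelled group, a log2 difference of 0.99 with a standard error of 0.03.

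The window before the Stc2 start is shown as that of the only member with a higher level in the labelled libraries. It covers chr11:31370062-31370311 of GRCm38.p6 on the minus strand, 250 bases, with matches in capitals.
Stc2: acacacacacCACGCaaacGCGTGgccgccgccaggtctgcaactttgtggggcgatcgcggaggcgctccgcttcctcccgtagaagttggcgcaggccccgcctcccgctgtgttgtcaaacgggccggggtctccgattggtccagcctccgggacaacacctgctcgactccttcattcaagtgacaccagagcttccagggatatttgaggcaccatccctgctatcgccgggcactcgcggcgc
The letters GCGTG of the hypoxia element occur at 240 bases before the start on the opposite strand, read as CACGC, and at 231 bases on the strand shown. At 64.4% its content of G and C was above the median of 52.4% over all windows and above the 60.0% of the Cck window. Promoter windows were matched for 5 of the 6 genes; Stc1 was not among them.

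Because the paralogs moved in opposite directions, their order was exchanged while their sum differed far less. Stc2 was 32.6, 20.3 and 25.2 times Stc1 in the labelled libraries, and 0.696, 0.654 and 0.715 times Stc1 in the control libraries. Every labelled library thus held mostly Stc2 and every control library held more Stc1 than Stc2. The summed level of both was 18.4 ± 0.240 FPKM in the labelled libraries and 21.3 ± 0.636 FPKM in the control libraries (SD, n = 3 each).

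Nppb, which encodes the hormone BNP that lowers blood pressure and promotes salt loss, was low in all libraries and lower in the labelled group. Nppb (ENSMUSG00000029019, chromosome 4, 147985788 to 147987205, plus strand) stood at 0.196, 0.760 and 0.495 FPKM in the labelled libraries and at 2.14, 1.73 and 2.58 FPKM in the control libraries. The highest labelled library, replicate 2, was still below the lowest control library, replicate 2 as well, and labelled replicate 1 was the lowest of all. Only 4, 15 and 8 reads lay behind the labelled values, against 40, 32 and 51 behind the control values. The means were 0.484 ± 0.282 FPKM in the labelled and 2.15 ± 0.423 FPKM in the control libraries (SD, n = 3 each), a ratio of 4.44 between control and labelled. The ratio of reads, labelled over control, was 0.222 with an exact 95% interval for counting error from 0.141 to 0.339. The log2 difference was -1.46 with a standard error of 0.22. Nppb passed the filter of a mean of 1 FPKM only through the control libraries, and so did Stc1, at 0.705 FPKM in the labelled group. Among the genes that passed this filter, Nppb stood at position 130 in the order of falls, against 2 for Cck and 7 for Stc1.

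The Nppb window, chr4:147985650-147985899 of GRCm38.p6 on the plus strand, is shown because natriuretic peptide promoters are known to carry GATA and MCAT sites close to the start. This RefSeq start lies downstream of the start the authors' gene model gives, and matches are in capitals.
Nppb: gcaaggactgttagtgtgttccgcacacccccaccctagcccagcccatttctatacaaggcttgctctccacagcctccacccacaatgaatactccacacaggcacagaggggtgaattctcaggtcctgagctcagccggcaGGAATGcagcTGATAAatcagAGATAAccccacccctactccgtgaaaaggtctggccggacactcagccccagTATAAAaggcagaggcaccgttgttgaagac
The MCAT element is read as GGAATG from 105 bases before the start, the GATA matches TGATAA and AGATAA follow at 95 and 84 bases, and the TATA box lies at 31 bases. Over all windows 12.6% hold an MCAT element, 16.6% a GATA match and 12.4% the TATA box letters. The Cck window holds neither TATAAA nor an MCAT match, and the Stc2 window holds no GATA match.

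Adm and Edn1 were barely detected. Adm (ENSMUSG00000030790, chromosome 7, 110627661 to 110629820, plus strand) had 0, 0 and 1 reads in the labelled libraries and 2, 5 and 6 reads in the control libraries, so its FPKM values were 0, 0 and 0.0298 in the labelled and 0.0516, 0.130 and 0.146 in the control libraries. The groups did not overlap, but all rest on a handful of reads. The ratio of reads was 0.0779 with an exact 95% interval for counting error from 0.00183 to 0.518. A count of 0 allows up to 3 reads, which is 0.0709 FPKM in labelled replicate 1 and 0.0733 FPKM in labelled replicate 2, so these libraries are not distinguishable from control replicate 1 at this depth. Edn1 (ENSMUSG00000021367, chromosome 13, 42301476 to 42307990, plus strand) stood at 0.180, 0.219 and 0.247 FPKM in the labelled libraries and at 0.214, 0.324 and 0.151 FPKM in the control libraries, which overlap. With at least 11, 13 and 12 reads in the labelled libraries and 12, 18 and 9 in the control libraries, the ratio of reads was 0.934 with an exact 95% interval from 0.577 to 1.51. A difference within that interval could not be seen at this depth. Both genes fell below the filter of a mean of 1 FPKM and entered no test. Their windows hold GCGTG read as CACGC at 90 and 54 bases before the Adm start and the MCAT letters CATTCC at 207 bases before the Edn1 start. Stc1, Adm and Edn1 each overlap an antisense gene that has no row in the expression table.

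**Figure D1:**
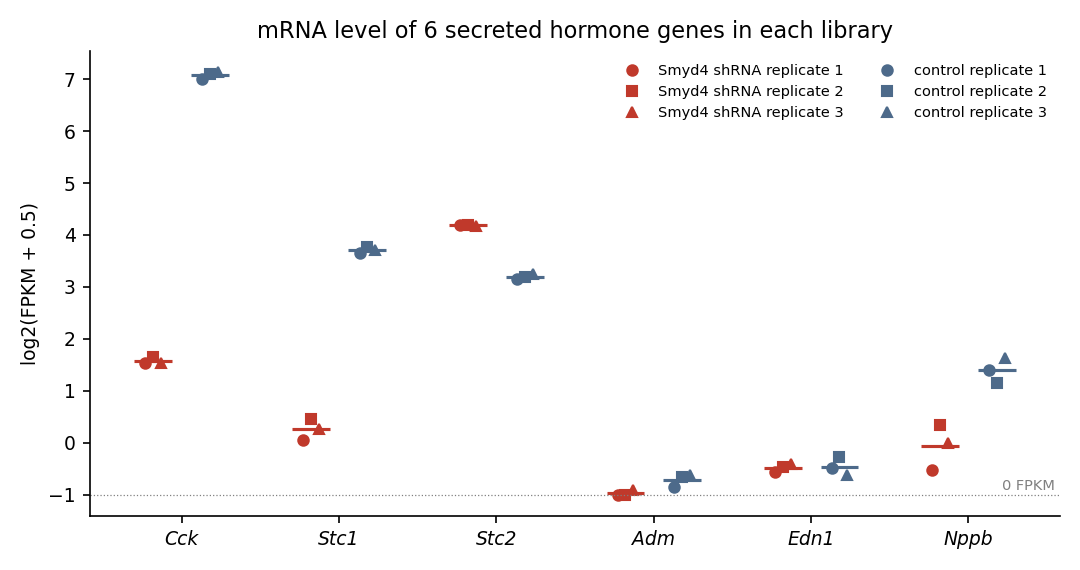
Level of the 6 hormone genes as log2(FPKM + 0.5) on the vertical axis, for the 3 libraries labelled Smyd4 shRNA (red, left of each pair) and the 3 control libraries (blue); each marker is a library and each bar a mean of 3. Cck, Stc1 and Nppb lie lower in the labelled libraries and Stc2 higher, Adm sits near the line of 0 FPKM and the Edn1 groups overlap.

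In 5 of the 6 genes the 3 values of one group lay on one side of the other 3, with 4 lower and 1 higher. The same separation held for 38.7% of all genes, and over the tested genes 57.8% (27.6% lower and 30.2% higher), and since the members were chosen on this contrast nothing is read from their count. The order of mean levels in the labelled libraries was Stc2, Cck, Stc1, Nppb, Edn1 and Adm, and in the control libraries it was Cck, Stc1, Stc2, Nppb, Edn1 and Adm. In the labelled libraries the ranges of Stc1 and Nppb overlapped (0.542 to 0.877 and 0.196 to 0.760 FPKM), as did those of Nppb and Edn1. At the lengths used, the order was still the same within each labelled library. Nppb and Edn1 lay close in labelled replicate 1, at 0.196 and 0.180 FPKM, on few reads. In the control libraries no neighbouring ranges overlapped. The levels depend on the gene length, and the authors used 685 bases for Cck where the GENCODE M21 exons cover 1305; at that length Cck would stand at 1.30 FPKM in labelled and 71.0 FPKM in control libraries, with its place in both orders kept.

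The 6 transcripts together summed to 21.6 ± 0.658 FPKM in the labelled libraries, against 159 ± 7.11 FPKM in the control libraries (SD, n = 3 each), a description of the members' sum with no test. Cck made up 11.5 ± 0.373% of the labelled sum and 85.0 ± 0.220% of the control sum. Stc2 made up 82.0 ± 2.22% of the labelled and 5.46 ± 0.114% of the control sum, and Stc1 3.26 ± 0.678% of the labelled and 7.94 ± 0.309% of the control sum. At the GENCODE M21 lengths, an alternative added after the data were seen, the sum would be 20.3 ± 0.575 FPKM in labelled and 93.4 ± 4.04 FPKM in control libraries. The Cck share would then be 6.41% of the labelled and 76.0% of the control sum, and the Stc2 share 86.9% of the labelled and 9.29% of the control sum. With either length the most abundant hormone transcript of the set was Stc2 on average in the labelled libraries and Cck in the control libraries.

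**Figure D2:**
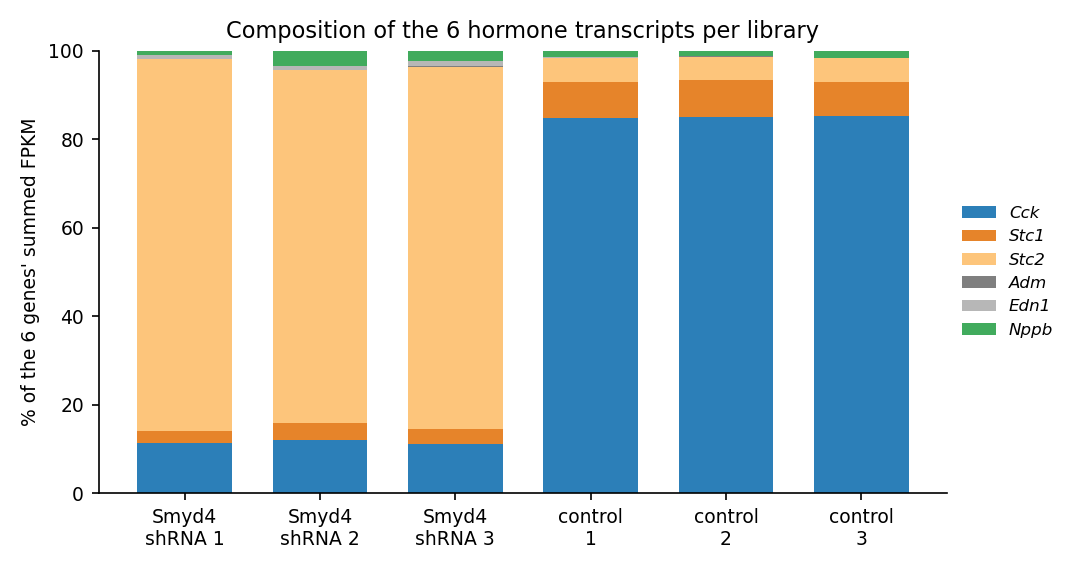
Share of each gene in the summed FPKM of the 6 hormone genes (vertical axis, %), for the 3 libraries labelled Smyd4 shRNA on the left and the 3 control libraries on the right. Stc2 takes most of every labelled bar (82.0% on average) and Cck most of every control bar (85.0%).

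The authors' deposited table lists 4 of the 6 genes, with log2 fold changes of -5.29 for Cck, -3.86 for Stc1, 1.01 for Stc2 and -1.09 for Nppb. For Cck and Nppb these values lie nearer to 0 than the -5.51 and -1.46 computed here on log2(FPKM + 0.5). For Stc1 and Stc2 they lie further from 0 than -3.45 and 0.99. The gap is wider for Nppb on recovered reads, where edgeR gave -2.16. Which test the authors ran is not given, so the measures may differ in kind.

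The members' close relatives, other hormone genes, receptors, processing enzymes and regulators were tested in lists drawn up by function, with earlier results of these data known. Of 11325 genes tested over the whole table, 48.3% passed a Benjamini-Hochberg adjusted p of 0.05 in limma, 25.1% higher and 23.3% lower in the labelled libraries, with a median log2 difference of 0.02. Among 10 genes of the same hormone families 4 had a row and 1 was tested. This was Adm2, which encodes adrenomedullin 2, a peptide that acts on the same receptors as adrenomedullin. Adm2 stood at 57.7, 51.4 and 52.5 FPKM in the labelled libraries and at 26.8, 24.6 and 25.2 FPKM in the control libraries, with no overlap. Its log2 difference was 1.06 ± 0.05 (standard error; limma, adjusted p = 1.6e-06), close in size to that of Stc2. While Adm was nearly absent, Adm2 was thus the most abundant transcript of that family. Calcb, the most abundant of the other 3 relatives, stood at 0.514 FPKM in labelled and 0.369 FPKM in control libraries on average and was not tested.

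Of 61 other peptide hormone and neuropeptide genes 26 had a row and 8 were tested, 3 of them higher, 3 lower and 2 not passing, with a median log2 difference of 0.13. On recovered reads edgeR tested 16 and called 2 higher and 6 lower, where it called 49.5% of all genes it tested, 23.3% higher and 26.3% lower. Among the falls were Agt, Pthlh and Fst, which were too low for limma. Inhbb and Inhba, the beta subunits from which activins and inhibins are built, both fell. Inhbb stood at 0.962, 0.976 and 0.987 FPKM in the labelled libraries and at 5.31, 5.08 and 5.61 FPKM in the control libraries (log2 difference -1.98, standard error 0.06; limma, adjusted p = 1.8e-07). Like Nppb, it passed the filter of a mean of 1 FPKM only through the control libraries; on recovered reads edgeR gave a log2 difference of -2.46 (adjusted p = 3.2e-20). Inhba stood at 6.98, 7.51 and 7.98 FPKM in the labelled libraries and at 14.8, 14.0 and 13.8 FPKM in the control libraries (log2 difference -0.88; limma, adjusted p = 4.9e-06). Fst, whose product follistatin binds activin, was chosen after its values were seen and was too low for the limma test, at 0.251 FPKM in labelled and 1.20 FPKM in control libraries on average; edgeR on recovered reads gave a log2 difference of -2.27 with adjusted p = 2.1e-09. Apln, the gene of apelin, which acts on heart contraction and vessels, rose to 7.13 ± 0.236 FPKM, against 5.25 ± 0.171 FPKM in the control libraries (limma, adjusted p = 0.000135). Gdf15, a stress-induced cytokine that suppresses appetite, rose to 14.6 FPKM, against 12.3 FPKM in control libraries (limma, adjusted p = 0.00139). Metrnl, which encodes the secreted protein meteorin-like, fell to 21.2 FPKM, against 23.3 FPKM in control libraries (limma, adjusted p = 0.00476). Gnrh1, the gonadotropin-releasing hormone gene, stood at 3.24 FPKM in labelled and 2.16 FPKM in control libraries, with overlapping groups. It passed in limma with adjusted p = 0.0373, but not in edgeR (0.0575), and not in limma without control replicate 2 (0.114), control replicate 3 (0.0923), labelled replicate 1 (0.0758) or labelled replicate 3 (0.102).

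The receptors of the 6 hormones were mostly low. Of 13 receptor genes 10 had a row and 2 were tested, and both fell. Calcrl, which pairs with a Ramp protein to form the adrenomedullin receptor, stood at 2.60, 2.63 and 3.13 FPKM in the labelled libraries and at 4.49, 4.18 and 4.61 FPKM in the control libraries (log2 difference -0.59, standard error 0.07; limma, adjusted p = 0.000357). Ackr3, an atypical chemokine receptor that also takes up adrenomedullin, stood at 3.97, 3.40 and 3.64 FPKM in the labelled libraries, against 12.9, 12.2 and 13.3 FPKM in the control libraries (log2 difference -1.67, standard error 0.06; limma, adjusted p = 3.2e-07). No values of the groups overlapped for either gene. On recovered reads edgeR could test 7 receptor genes and placed 1 higher and 5 lower, where it called 49.5% of all genes it tested, 23.3% higher and 26.3% lower. Named after their values were seen, these included Ednra, the endothelin receptor of muscle cells, at 0.126, 0.130 and 0.106 FPKM in the labelled libraries and 0.778, 0.640 and 0.605 FPKM in the control libraries (edgeR, adjusted p = 7.9e-11). They also included Npr3, the clearance receptor of natriuretic peptides, at 0.293, 0.348 and 0.390 FPKM in the labelled libraries, against 0.808, 0.835 and 0.700 FPKM in control libraries (edgeR, adjusted p = 6.7e-08). Npr1, the guanylyl cyclase through which BNP signals, was the gene placed higher, at 0.491 FPKM in labelled and 0.346 FPKM in control libraries on average (edgeR, adjusted p = 0.0436). The cholecystokinin receptor gene Cckbr stayed at 0.101 FPKM in labelled and 0.0445 FPKM in control libraries, and Cckar had no row.

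Genes of precursor processing were called about as often as genes in general. Of 32 genes 27 had a row and 14 were tested, 3 of them higher, 4 lower and 7 not passing, where 48.3% of all tested genes passed; the median log2 difference was 0.03. Furin, the convertase that cuts the BNP and endothelin 1 precursors, had the largest change among those tested in limma. It stood at 13.5, 12.9 and 12.2 FPKM in the labelled libraries and at 22.6, 21.9 and 21.8 FPKM in the control libraries (log2 difference -0.76, standard error 0.04; limma, adjusted p = 2.8e-06). Fam20c, a kinase that phosphorylates secreted proteins, fell to 12.6 FPKM, against 15.0 FPKM in control libraries (limma, adjusted p = 0.00141), and Qpctl, which forms pyroglutamate at peptide ends, fell to 4.09 FPKM, against 4.96 FPKM in control libraries (limma, adjusted p = 0.00403). The remaining fall in limma, named after its values were seen, was Pam, the enzyme that amidates cholecystokinin and adrenomedullin, at 14.2 FPKM in labelled and 15.2 FPKM in control libraries (limma, adjusted p = 0.0371). The Pam call was lost when any library but control replicate 3 was left out (limma, adjusted p = 0.0654 to 0.124), and with quantile normalization (0.0810). Ide, the insulin-degrading enzyme, rose to 26.6 FPKM, against 22.7 FPKM in control libraries (limma, adjusted p = 0.00203). Mbtps1, the site-1 protease, stood at 43.1 FPKM in labelled and 40.3 FPKM in control libraries (limma, adjusted p = 0.0185). Cpe, the carboxypeptidase that trims cut prohormones, was the most abundant of the list and stood at 61.1 ± 1.58 FPKM in labelled and 60.2 ± 2.28 FPKM in control libraries (limma, adjusted p = 0.648), and the tyrosine sulfotransferase gene Tpst2 stood at 52.0 FPKM in labelled and 51.1 FPKM in control libraries (limma, adjusted p = 0.578). On recovered reads edgeR tested 20 genes of the list and called 4 higher and 7 lower, where it called 49.5% of all genes it tested. Named after their values were seen, its largest falls were in genes too low for limma. Mme, the gene of neprilysin, a protease that degrades natriuretic peptides, stood at 0.0199, 0.0240 and 0.0418 FPKM in the labelled libraries and at 0.221, 0.223 and 0.267 FPKM in the control libraries (edgeR log2 difference -3.09, adjusted p = 1.5e-10). Cpn1, a carboxypeptidase subunit gene, had 2, 0 and 0 reads in the labelled and 10, 14 and 11 reads in the control libraries (edgeR, adjusted p = 5.0e-05). Qpct, the secreted relative of Qpctl, stood at 0.645 FPKM in labelled and 1.25 FPKM in control libraries (edgeR log2 difference -0.95, adjusted p = 0.000283). The Mbtps1 call was lost without control replicate 3 (limma, adjusted p = 0.0528) and without labelled replicate 1 (0.0572).

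Transcription factors known to act on one or more of the 6 genes were listed with earlier results of these data known. Their counts therefore describe the listed genes and are no result about regulators in general. Of 29 genes, all with a row, 23 were tested, 3 of them higher, 14 lower and 6 not passing. Over all tested genes 25.1% were higher and 23.3% lower. The median log2 difference of the list was -0.23. The largest fall was that of Cebpd, a factor of the acute phase response (log2 difference -2.96; limma, adjusted p = 2.3e-09). Junb and Fosl1, which are AP-1 subunits, fell by 1.01 and 0.26 on the log2 scale (limma, adjusted p = 6.8e-07 and 0.000136), and Stat3, which carries cytokine signals, fell by 0.79 (limma, adjusted p = 9.6e-07). Nkx2-5, a cardiac homeobox factor known to act on natriuretic peptide genes, rose to 7.68 ± 0.607 FPKM, against 3.57 ± 0.659 FPKM in control libraries (SD, n = 3 each; limma, adjusted p = 0.000215). Its values were 7.03, 8.23 and 7.79 FPKM in the labelled libraries and 2.85, 3.74 and 4.14 FPKM in the control libraries. The same labelled libraries held less Nppb, on 4, 15 and 8 reads. These are mRNA values only, and the part of Nkx2-5 in the Nppb level was not tested. Gata4, which binds GATA sites in cardiac promoters, stood at 8.88 FPKM in labelled and 8.09 FPKM in control libraries (limma, adjusted p = 0.0314). That call was lost without control replicate 2 (limma, adjusted p = 0.101) or 3 (0.0915) and without labelled replicate 1 (0.0579), 2 (0.0951) or 3 (0.0531). Srf, the serum response factor, rose by 0.21 on the log2 scale (limma, adjusted p = 0.000478). Atf4 stood at 216 ± 5.02 FPKM in labelled and 208 ± 1.83 FPKM in control libraries (limma, adjusted p = 0.110), beside the higher Stc2 and Adm2. These values are of Atf4 mRNA only, and the amount and activity of the Atf4 protein were not measured. Its part in the levels of Stc2 and Adm2 was not tested. Cebpd, Junb, Fosl1, Stat3 and Srf overlap another annotated gene on the opposite strand, as do Furin, Qpctl and Ednra above, and their values may hold its reads if counting ignored strand.

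**Figure D3:**
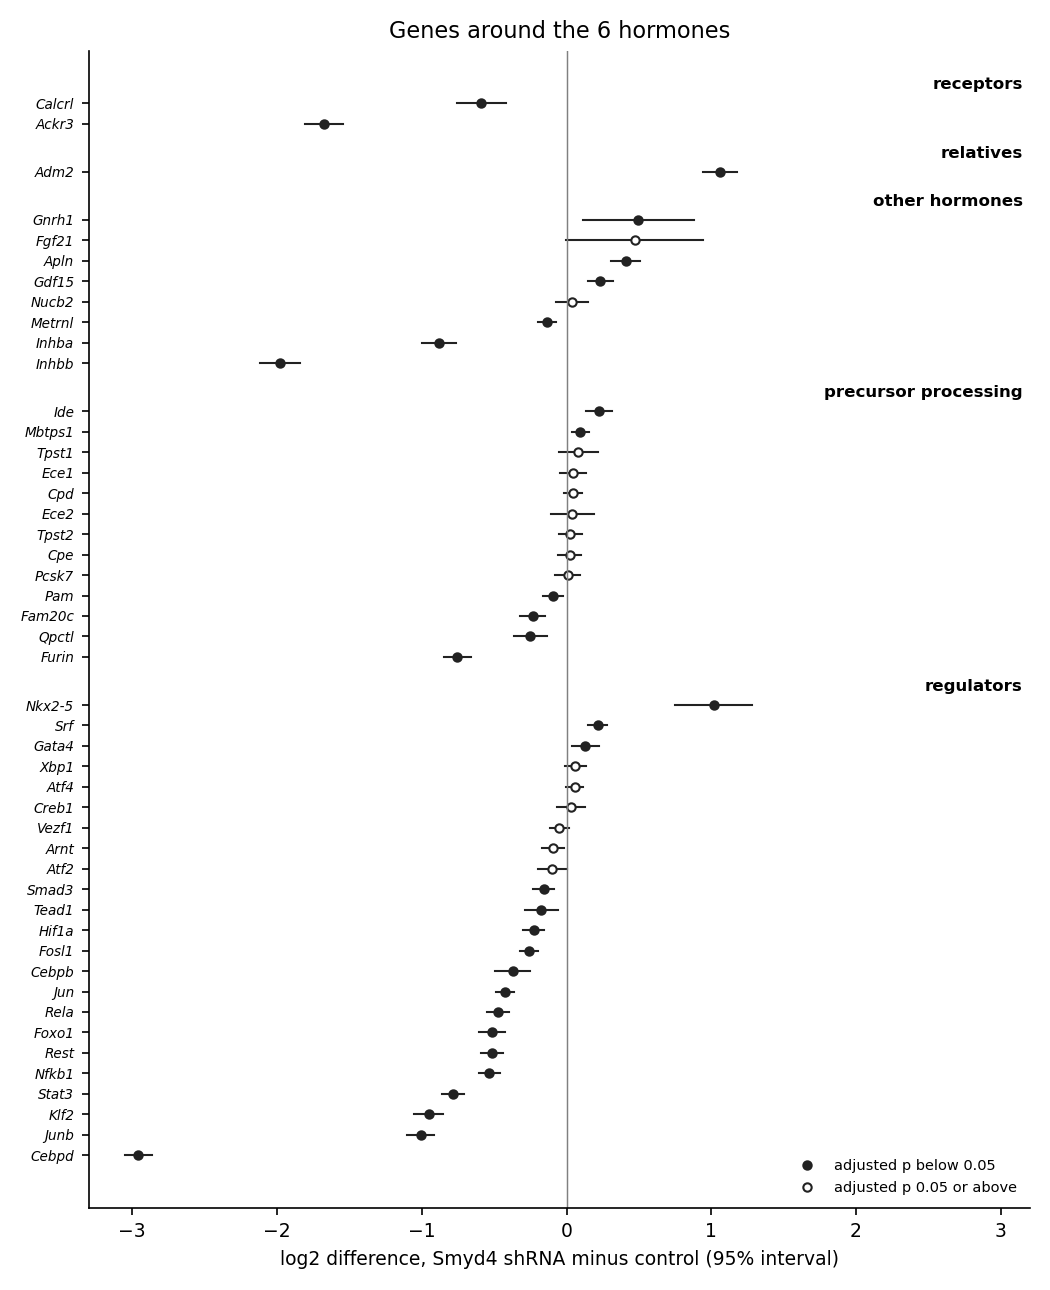
Log2 difference, libraries labelled Smyd4 shRNA minus control, on the horizontal axis for tested genes of 5 lists related to the hormones, with limma's 95% interval as a line; filled points have an adjusted p below 0.05. Both receptors and most regulators lie left of 0, Adm2 and Nkx2-5 lie near 1, and most processing genes lie close to 0 with Furin at -0.76.

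Neighbouring genes were examined to see whether a difference extended beyond the hormone gene itself. The nearest 2 protein-coding genes with a row on either side of each member gave 24 genes, of which 20 were tested, 4 of them higher, 6 lower and 10 not passing. Over all tested genes 48.3% passed, 25.1% higher and 23.3% lower, so the neighbours were called about as often as genes in general. All 4 tested neighbours of Stc1 fell, while 23.3% of all tested genes did. Nefl and Nefm, the light and medium neurofilament genes, end 940 and 904 kb before Stc1 and overlap each other on opposite strands. Nefl stood at 3.97, 3.91 and 4.07 FPKM in the labelled libraries and at 35.5, 35.4 and 35.1 FPKM in the control libraries (log2 difference -2.997; limma, adjusted p = 5.0e-10). Nefm stood at 1.99, 1.89 and 1.75 FPKM in the labelled libraries, against 15.4, 16.2 and 15.1 FPKM in control libraries (log2 difference -2.76; limma, adjusted p = 1.2e-08). On the log2(FPKM + 0.5) scale, which understates the change of low genes, Stc1 differed by -3.45. As ratios of mean FPKM, control over labelled, the falls were 8.86 for Nefl and 8.31 for Nefm, against 17.9 for Stc1. On recovered reads edgeR gave log2 differences of -3.16 for Nefl, -3.05 for Nefm and -4.17 for Stc1. The nearest neighbour on the other side, Slc25a37, a mitochondrial iron carrier gene 200 kb away, differed by only -0.10 (limma, adjusted p = 0.0180). The Slc25a37 call was lost without control replicate 2 (limma, adjusted p = 0.0639) or labelled replicate 1 (0.0558). Loxl2, a collagen cross-linking oxidase gene 567 kb away, fell to 2.74 ± 0.0459 FPKM, against 5.20 ± 0.304 FPKM in control libraries (limma, adjusted p = 9.4e-06).

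Around Cck only Trak1, 14.9 kb away, was high enough for limma, and it stood at 11.1 FPKM in labelled and 11.8 FPKM in control libraries (limma, adjusted p = 0.239) where Cck differed 54.4-fold. The 2 further neighbours of Cck that edgeR could test, named after their values were seen, were higher on recovered reads. Vipr1, a receptor gene for vasoactive intestinal peptide, had 29, 34 and 25 reads in the labelled libraries and 4, 1 and 8 reads in the control libraries (edgeR log2 difference 2.74, adjusted p = 1.5e-06). Ulk4 stood at 1.04 FPKM in labelled and 0.685 FPKM in control libraries (edgeR log2 difference 0.59, adjusted p = 3.0e-05). Around Nppb, Plod1 rose by 0.12 on the log2 scale (limma, adjusted p = 0.0118) and the other 3 did not pass, among them Clcn6 at 17.1 kb. Around Stc2, Chac2, a glutathione-degrading enzyme gene, rose by 0.40 (limma, adjusted p = 0.00110), Asb3 by 0.26 (0.0123) and Bod1 by 0.19 (0.0175), and Cpeb4 did not pass in limma (adjusted p = 0.0744) but fell in edgeR (0.00947). The Bod1 call was lost without control replicate 2 (limma, adjusted p = 0.0509) or 3 (0.0507). These neighbours of Stc2 lie 255 to 502 kb from it. Around Adm, Swap70 at 344 kb and Ampd3 at 138 kb fell by 0.22 and 0.27 (limma, adjusted p = 0.00573 and 0.00167). The nearest neighbour of Adm, Sbf2 at 12.7 kb, differed by 0.07 (limma, adjusted p = 0.168), and Rnf141 did not pass either (0.160). Around Edn1 the 3 tested neighbours did not pass, the largest difference being that of Hivep1 at -0.11 (95% interval -0.25 to 0.03; limma, adjusted p = 0.168), which edgeR called (adjusted p = 0.0487). Phactr1 beside Edn1 entered neither test and had 0, 0 and 1 reads in the labelled and 12, 13 and 5 reads in the control libraries. Chac2 and Asb3 overlap each other on opposite strands, as do Ampd3 and Rnf141, and Ulk4 overlaps Ctnnb1 in the same way.

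**Figure D4:**
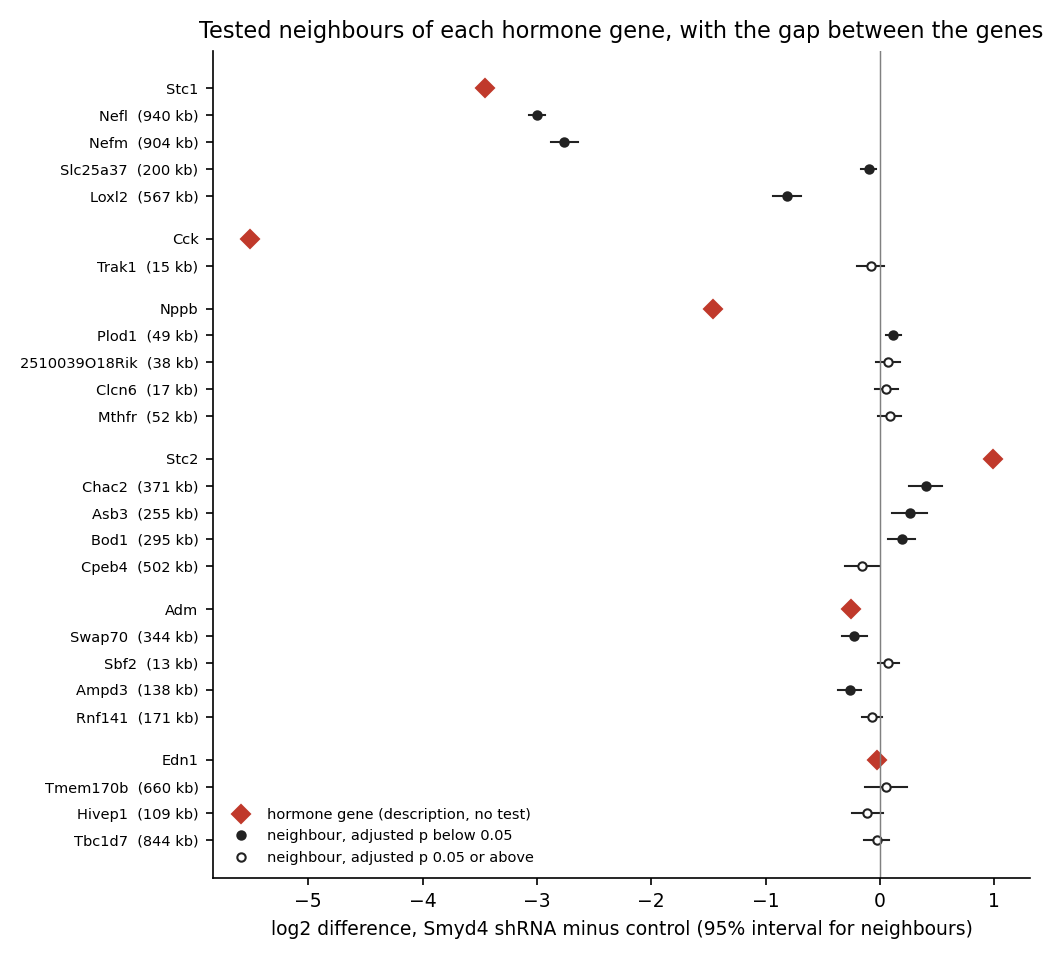
Log2 difference, libraries labelled Smyd4 shRNA minus control, on the horizontal axis for each hormone gene (red diamond, no test) and below it for its tested protein-coding neighbours in chromosome order, with the gap to the hormone gene in kb; lines are limma's 95% intervals and filled points have an adjusted p below 0.05. The neurofilament genes beside Stc1 lie near -3, while the plotted neighbours of Cck and Nppb lie close to 0.

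Genes with the most similar pattern were found by the Euclidean distance between log2(FPKM + 0.5) values over the 6 libraries, each gene centred on its mean; this is a description over 6 libraries in 2 groups and carries no test. For Cck the nearest were the chemokine genes Cxcl5 and Cxcl1, at distances of 0.41 and 0.45, and then the complement gene C3 at 1.94. For Stc1 they were Igfbp2, Rgs16 and Hs3st1 at 0.28, 0.33 and 0.36. Their ratios of mean FPKM, control over labelled, were 11.6, 48.4 and 36.9, against 17.9 for Stc1. A small distance on this scale is thus not an equal fold change. Rgs16 and Hs3st1, at 0.130 and 0.164 FPKM in labelled libraries, passed the filter only through the control libraries. For Stc2 the nearest were Nqo1, Itga6 and Kirrel3 at 0.04, 0.07 and 0.07, and for Nppb Defb28, Lmcd1 and Samd12 at 0.47, 0.47 and 0.50. C3, Defb28, Lmcd1 and Samd12 also passed the filter only through the control libraries.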

How the data were processed

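RNA sequencing of 6 libraries was analysed, 3 labelled Smyd4 shRNA and 3 control, grouped and numbered by sample title. TopHat2 2.0.9, Bowtie2 2.0.6 and the build GRCm38 are named in the submitters' processing notes; the sources used here give neither how reads were counted, strand included, nor which test was run. The authors deposited FPKM values for 22246 genes, and a comparison table of 5616 genes whose deposited signal is each library's reads over its size factor. That table also holds the authors' log2 fold changes and the authors' p-values, with a largest adjusted p of 0.0499. FPKM times gene length over that signal was 1 constant, so the FPKM values carry the same size factors, and median-of-ratios factors computed here were equal to them. Whole reads were recovered: 100% of the table's values were whole multiples of 1 step per library (tolerance 1e-04), and 100% of FPKM values gave whole reads within 0.01. Lengths were the authors' for 5616 genes and the annotation's for 13309. The other 3321 genes, Edn1 among them, took the shortest length that gave whole reads, which makes their reads lower bounds.

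Groups were compared with limma 3.58.1 (trend) in R 4.3.3 on log2(FPKM + 0.5), which understates the change of low genes, for the 11325 genes averaging 1 FPKM or more, with Benjamini-Hochberg adjustment over all of them at 0.05. edgeR 4.0.16 on recovered reads was an alternative. Both were tested on simulated data. The samples' replicate libraries differed by more than sampling noise, with a chi-square per degree of freedom of 1.64 to 2.71. Replicate numbers did not pair the libraries.

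The members and lists were chosen with earlier results of these data known. Named were the 6 members and Smyd4. Each list added up to 6 called genes, those with the lowest adjusted p and at most 3 per direction first, and the 2 genes with the highest mean. All called neighbours were named, and for each tested member the 3 nearest patterns, leaving out gene models without a proper name. Results of some list genes are not reported here, although the counts include them. Intervals for reads are exact binomial at 95%; these and the floor of 3 reads cover counting error only. Symbols were matched for 22134 identifiers. Neighbours and overlaps came from GENCODE M21, promoter sequences from RefSeq (GRCm38.p6). Scaling by total reads was added after the data were seen.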

Additional observations from a re-analysis of the deposited data

How the results depend on the processing

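On the log2 scale the differences of Cck, Stc1, Stc2, Adm and Nppb depended on the pseudocount and kept their direction; that of Edn1 changed sign when libraries were left out (-0.10 to 0.07). With a pseudocount of 0.1 they were -5.71 for Cck, -4.00 for Stc1, 1.02 for Stc2, -0.91 for Adm and -2.06 for Nppb; with 1 they were -5.29, -3.001, 0.95, -0.13 and -1.09. edgeR on recovered reads, which needs none, gave -5.77 for Cck, -4.17 for Stc1, 1.02 for Stc2 and -2.16 for Nppb. Leaving out each library in turn gave -5.55 to -5.48 for Cck, -3.55 to -3.35 for Stc1, 0.97 to 1.01 for Stc2 and -1.66 to -1.23 for Nppb. Called members moved by over 1.5 times in the relatives (2 without a filter, 1 otherwise), in precursor processing (11 with edgeR, 7 in limma) and in the receptors (4 without a filter, 6 with edgeR, 2 in limma); unfiltered limma and edgeR test more low genes. Among tested list genes, the values that changed sign were those of Cpe after quantile normalization (-0.0071) and when leaving out libraries (-0.00033 to 0.0512), and of Tpst2 when leaving out libraries (-0.0058 to 0.0464); neither was called. Of 36 named genes tested, 8 changed call or sign under at least 1 of 14 alternatives. Replicate numbers did not pair the libraries (correlations -0.03, 0.02 and 0.01 for equal numbers, and labelled replicate 1 correlated best with control replicate 3); with the replicate block limma called 5141 genes, against 5474 without it, and the calls of Gata4 (adjusted p = 0.0583) and Pam (0.0736) were lost. Gata4 was also lost with total-read scaling (limma, adjusted p = 0.0569). Depth limits Adm, Edn1 and Nppb, which rest on 0 to 51 reads per library.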
